A study of Mus musculus with 9 samples.

Results

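The 10 genes described here are genes of the endoplasmic reticulum (ER) stress response and the integrated stress response (ISR): Atf3, Atf4, Ddit3, Trib3, Chac1, Asns, Sesn2, Hspa5, Xbp1 and Herpud1. They were chosen by symbol, as genes of these pathways, and the rule uses no measured value. Earlier results of these data were known when they were chosen. All 10 were found in the gene annotation, with 37 transcripts quantified between them, and 8 of the 10 were among the 15340 genes tested; Atf3 and Trib3 were too low. Their transcripts were measured by RNAseq in the mediobasal hypothalamus (MBH), where the feeding neurons of the arcuate nucleus lie, in male wild-type C57Bl/6 mice at P21. The 4 CTRL libraries came from offspring of dams that drank plain water. The 5 Emul libraries came from offspring of dams whose drinking water held 1% carboxymethylcellulose (CMC) and 1% polysorbate 80 (P80), which are food emulsifiers, before mating and through gestation and lactation. The study's methods count 4 control and 5 emulsifier-treated litters, and the labels name no other agent or allele for these groups. The MBH is a mixture of cells, so in these bulk libraries fewer cells of a type and less RNA per cell cannot be told apart.

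Proteins that fail to fold in the ER are sensed by 3 membrane proteins: PERK (Eif2ak3), IRE1 (Ern1) and ATF6 (Atf6). IRE1 removes a short intron from the Xbp1 mRNA to give an active transcription factor, and XBP1 and ATF6 then raise chaperones and genes of ER-associated degradation. PERK and related kinases phosphorylate the translation factor eIF2, which lowers protein synthesis in general but favours translation of Atf4. ATF4 in turn activates genes of amino acid supply and of stress adaptation; this branch is the ISR. In the hypothalamus, ER stress is best known as a condition that dampens leptin and insulin signalling.

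The promoters of these genes hold short elements through which the factors act. Upstream sequences were taken from RefSeq (build GRCm38.p6), where a window of 250 bases before to 50 bases after the gene start was found for all 10 genes. Both strands were searched for 3 motifs: the ER stress element ERSE, bound by ATF6 together with NF-Y (CCAAT, 9 bases of any kind, CCACG); ERSE-II (ATTGG, 1 base of any kind, CCACG); and the C/EBP-ATF response element CARE, a site of ATF4 (TGATG, 1 base of any kind, AA). ERSE and ERSE-II share the letters CCACG, but no 2 of the matches described here overlap. Below are the 250 bases before the start of the 2 genes with an ERSE or ERSE-II match, Hspa5 (chr2:34771840-34772089, plus strand) and Herpud1 (chr8:94386179-94386428, plus strand), and of 2 with a CARE match, Chac1 (chr2:119350992-119351241, plus strand) and Asns (chr6:7693210-7693459, minus strand). They are written 5′ to 3′ in the direction of the gene, and capitals mark the motif matches.
Hspa5: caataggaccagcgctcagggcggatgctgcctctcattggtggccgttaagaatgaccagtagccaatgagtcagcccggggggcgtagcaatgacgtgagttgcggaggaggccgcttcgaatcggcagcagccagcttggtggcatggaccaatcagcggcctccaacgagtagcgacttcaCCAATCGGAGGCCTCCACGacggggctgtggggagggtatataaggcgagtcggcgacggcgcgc
Herpud1: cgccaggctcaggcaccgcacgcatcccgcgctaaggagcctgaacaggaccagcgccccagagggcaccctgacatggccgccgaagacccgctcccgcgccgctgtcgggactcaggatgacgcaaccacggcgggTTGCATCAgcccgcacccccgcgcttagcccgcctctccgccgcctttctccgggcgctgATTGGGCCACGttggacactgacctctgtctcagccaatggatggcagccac
Chac1: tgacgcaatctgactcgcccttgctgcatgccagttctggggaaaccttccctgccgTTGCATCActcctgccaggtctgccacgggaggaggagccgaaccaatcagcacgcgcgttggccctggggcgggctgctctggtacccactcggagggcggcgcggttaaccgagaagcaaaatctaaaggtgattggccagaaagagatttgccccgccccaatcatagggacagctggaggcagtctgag
Asns: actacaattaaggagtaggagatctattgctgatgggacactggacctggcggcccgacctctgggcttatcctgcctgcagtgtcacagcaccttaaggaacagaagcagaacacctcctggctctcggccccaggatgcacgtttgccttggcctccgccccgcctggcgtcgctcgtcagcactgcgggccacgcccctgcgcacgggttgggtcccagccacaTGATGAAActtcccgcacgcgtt

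The ERSE match of Hspa5 began 65 bases before the start, and the ERSE-II match of Herpud1 began 52 bases before it. Only exact matches to the letters given were counted, so imperfect copies of an element were missed. Herpud1 also held a CARE on the opposite strand, 112 bases before the start. CARE matches stood 193 bases before the start of Chac1 (opposite strand), 23 before that of Asns (same strand) and 110 before that of Atf3 (opposite strand). Trib3 had 1 after its start, and Atf4, Ddit3, Xbp1 and Sesn2 had no match in this window. These starts are those of RefSeq and differ from the gene coordinates given further below. By those coordinates the ERSE match of Hspa5 and the CARE matches of Asns and Atf3 lie inside the gene. That of Atf3 (chr1:191183436-191183443) is at a RefSeq start far inside it, and the match of Trib3 lies outside its gene. Over all 32851 windows in the RefSeq table, ERSE was found in 39 (0.119%), ERSE-II in 12 (0.0365%) and CARE in 1304 (3.97%). A match is a description of letters and not evidence that a factor binds there.

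**Figure D1:**
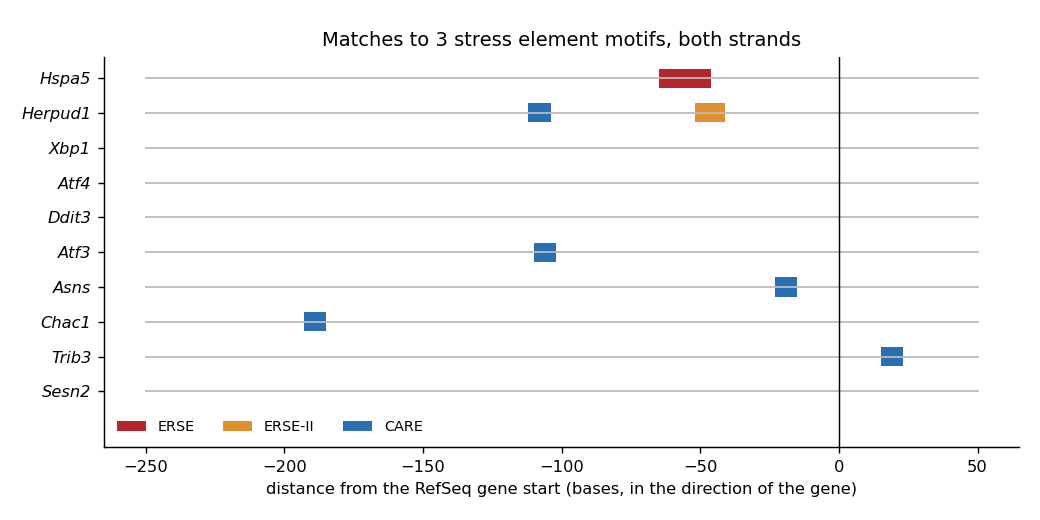
Positions of motif matches relative to the RefSeq gene start (x axis, bases in the direction of the gene; grey lines span the 300-base window searched) for the 10 genes, with ERSE, ERSE-II and CARE in separate colours. The ERSE of Hspa5 and the ERSE-II of Herpud1 lie 65 and 52 bases before the start, and CARE matches are found in Herpud1, Atf3, Asns, Chac1 and Trib3.

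The libraries held 28245360 to 46067534 estimated counts, with CTRL 3 the lowest. The 13 protein genes of the mitochondrial genome took 4.51% to 5.52% in CTRL and 5.71% to 6.75% in Emul, a shift without overlap. Markers were called at an unadjusted p under 0.05 (limma-voom). By this rule 6.84% of all 15340 genes tested were higher in Emul and 8.99% lower. Of 11 MBH markers 10 were tested and 0 were called, and Kiss1 was at 0 in a library. Their summed levels were 192 to 226 CPM (counts scaled to library size, here after TMM) in CTRL and 183 to 260 in Emul. Neuron markers were higher in Emul for 4 of 5 genes (2360 to 2574 CPM against 2555 to 2768) and oligodendrocyte markers were lower for 4 of 5 (12283 to 15495 CPM against 9603 to 13099). Astrocyte markers were lower for 1 of 5 (1355 to 1469 CPM against 1215 to 1348) and endothelial markers for 1 of 5 (140 to 180.3 CPM against 151 to 172). Thalamic markers were higher for 2 of 7 (353 to 417 CPM against 374 to 589). Of 6 suprachiasmatic genes 4 were tested and 1 was lower (109 to 203 CPM against 87.0 to 161). No microglial gene was called (134 to 146 CPM against 134 to 141). Of 5 choroid plexus genes 3 were tested and 0 called (27.4 to 30.4 CPM against 26.6 to 32.3). Of 7 pituitary genes 2 were tested and 0 called. The 7 summed to 7.69 to 11.0 CPM in CTRL and 8.24 to 10.4 in Emul, and Gh, Prl, Lhb and Fshb were each at 0 in a library. The part of these shifts in the results below was not tested.

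The level of each gene per length was taken from TPM, a measure that corrects for transcript length and library size, which allows genes to be set side by side. Hspa5, which encodes the ER chaperone BiP, was by far the most abundant, at 347 TPM ± 18.7 (SD, n = 9 libraries), and Atf4 followed at 93.1 ± 3.96. Herpud1 (78.0 ± 3.64), Asns (72.4 ± 5.12) and Xbp1 (72.0 ± 4.90) came next; Asns overlapped both Herpud1 and Xbp1. Ddit3 stood at 42.8 ± 3.09, Sesn2 at 10.03 ± 1.13 and Chac1 at 7.26 ± 0.608. Atf3 (0.884 ± 0.235) and Trib3 (0.522 ± 0.226) were lowest and overlapped. The ranges over the 9 libraries did not overlap for the other neighbours in this order. Atf3 and Trib3, both known for strong induction under stress, were thus the genes at the bottom in both groups.

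**Figure D2:**
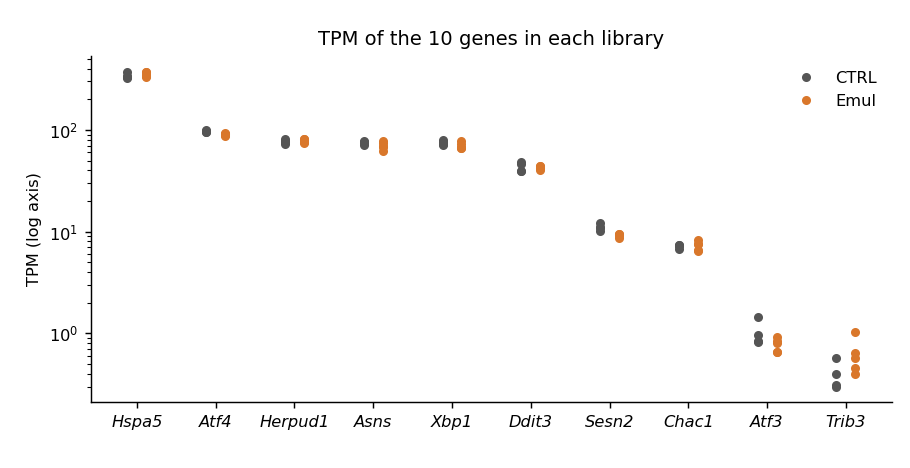
TPM (y axis, log scale) of the 10 genes, in order of their mean, with 1 point per library (4 CTRL, 5 Emul). Levels span from 347 TPM on average for Hspa5 to 0.522 for Trib3, and the groups lie close together beside this span.

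Of the 8 genes tested between Emul and CTRL, Hspa5 and Herpud1 were higher and Sesn2 was lower at an unadjusted p under 0.05 (limma-voom), and the other 5 were not called. By the same rule 6.84% of all 15340 genes tested were higher in Emul and 8.99% lower. These are 1049 genes higher and 1379 lower, where 767 of either direction are expected by chance; scaled by library size alone, the split was 517 (3.37% of genes) to 2248 (14.7%). The cutoff in the study's methods, which adds a fold change above 1.5, was passed by 0 of the 8 genes and by 0.469% of all genes. An adjusted p (Benjamini-Hochberg over all genes tested) under 0.05 was reached by 0 of the 8 and by 0.117% of all genes. The median log2 fold change of the 8 was 0.059, beside 0.0015 over all genes tested, and it was -0.053 in TPM, where the median of all genes was -0.099. With DESeq2, 1 of the 8, Hspa5, had an adjusted p under 0.05 (0.00650), as did 2.22% of all genes tested.

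The genes of the ER lumen and its degradation machinery were the 2 that were higher in Emul. Hspa5 (chr2:34771970-34777547, build mm10) encodes BiP, the chaperone that binds unfolded proteins in the ER and holds the 3 sensors inactive. Its log2 CPM was 8.59, 8.51, 8.67 and 8.54 in CTRL 1 to 4 and 8.70, 8.71, 8.70, 8.72 and 8.78 in Emul 1 to 5. All Emul libraries stood above all CTRL libraries, and the nearest were Emul 3 and CTRL 3. In CPM the means were 382 ± 18.1 (SD, n = 4) and 422 ± 9.49 (SD, n = 5). The log2 fold change by limma-voom was 0.15 (SE 0.033, 95% interval 0.075 to 0.22), with an unadjusted p of 0.000835 and an adjusted p of 0.103.

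Herpud1 (chr8:94386438-94395377) encodes HERP, an ER membrane protein that takes part in ER-associated degradation. Its log2 CPM was 5.95, 5.94, 5.94 and 5.83 in CTRL 1 to 4 and 6.09, 6.01, 6.00, 5.96 and 6.06 in Emul 1 to 5. The groups did not overlap here either, and CTRL 4 stood below the other CTRL libraries. The log2 fold change was 0.11 (SE 0.039, 95% interval 0.028 to 0.20; limma-voom, unadjusted p = 0.0130, adjusted p = 0.202). Without CTRL 4 it was 0.082, with an unadjusted p of 0.0593. Log2 CPM of the groups did not overlap for 2 of the 8 tested members and for 6.60% of all genes tested.

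The size of both differences depended on how libraries were scaled. With library size alone Hspa5 was still called (log2 fold change 0.12, limma-voom, unadjusted p = 0.00573). Herpud1 then was not (0.083, unadjusted p = 0.0559), and 3.37% of all genes were called higher. In TPM, without TMM scaling of libraries, Hspa5 was 338, 329, 371 and 326 in CTRL and 343, 332, 341, 369 and 371 in Emul, so the groups overlapped. On this scale the median gene was lower in Emul by a log2 difference of -0.099, and 131 genes (0.854%) were called higher against 4107 (26.8%) lower at an unadjusted p under 0.05, and 5.03% of genes had an adjusted p under 0.05. The log2 differences of Hspa5 and Herpud1 were then 0.044 (limma-trend, unadjusted p = 0.399) and 0.038 (unadjusted p = 0.452). Relative to the median of all genes they came to 0.14 each. With mitochondrial genes left out of the counts, the log2 fold change was 0.15 for Hspa5 (unadjusted p = 0.000671) and 0.12 for Herpud1 (unadjusted p = 0.0118).

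The transcription factors differed little. Atf4 (chr15:80255184-80257541), whose protein drives the ISR and is set mainly by translation, had log2 CPM of 6.29, 6.31, 6.25 and 6.31 in CTRL and 6.28, 6.38, 6.32, 6.24 and 6.23 in Emul. The groups overlapped in log2 CPM, and the log2 fold change was 0.0023 (95% interval -0.078 to 0.082; limma-voom, unadjusted p = 0.951). Its direction changed with the scaling, and in TPM, on the scale where most genes were lower, it was -0.100 (unadjusted p = 0.0176), which is -0.0011 relative to the median gene. Its TPM did not overlap between the groups (94.7 to 99.5 in CTRL, 87.0 to 92.5 in Emul). In TPM 26.8% of all genes were called lower, and the share of all genes without overlap was not counted. mRNA levels do not report on how much of the ATF4 protein was made.

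Xbp1 (chr11:5520659-5525893), the target of IRE1, had log2 CPM of 6.06, 6.07, 6.16 and 6.05 in CTRL and 6.28, 6.10, 6.04, 6.01 and 6.19 in Emul. The Emul libraries spanned both sides of the CTRL range, with Emul 1 highest and Emul 4 lowest. The log2 fold change was 0.040 (95% interval -0.076 to 0.16; limma-voom, unadjusted p = 0.468), and it was -0.096 in TPM. It was 0.00046 without Emul 1, 0.024 without Emul 5, 0.061 without CTRL 3 and 0.072 without Emul 4. The shortest intron of the 4 annotated Xbp1 transcripts has 300 bases, so the form made when IRE1 removes its much shorter intron was not quantified as a separate transcript.

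Ddit3 (chr10:127290774-127296288) encodes CHOP, a factor linked to cell death under prolonged stress. Its log2 CPM was 3.91, 4.08, 3.75 and 4.18 in CTRL and 4.11, 4.09, 4.07, 4.04 and 4.07 in Emul. The 5 Emul libraries lay close together within the wider range of the 4 CTRL libraries (SD 0.024 against 0.19). The log2 fold change was 0.078 (95% interval -0.080 to 0.24; limma-voom, unadjusted p = 0.305), and it was -0.017 in TPM. It was 0.018 without CTRL 3, 0.047 without CTRL 1, and 0.15 (unadjusted p = 0.0541) without CTRL 4. The lowest value was that of CTRL 3, the library with the fewest counts.

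Atf3 (chr1:191170296-191218039), a factor induced by many stresses, was below the filter of a CPM above 1 in 4 libraries. Its counts were 26, 37, 34 and 34 in CTRL and 23, 29, 35, 32 and 27 in Emul. The exact Poisson 95% interval of the highest count, that of CTRL 2, runs from 26.1 to 51.0, and such intervals cover counting error only. In CPM the ranges were 0.679 to 1.19 in CTRL and 0.582 to 0.927 in Emul, which overlap. In log2 CPM the exact permutation test gave a two-sided p of 0.230. Fitted without the filter among 27391 genes, its log2 fold change was -0.24 (limma-voom, unadjusted p = 0.270, adjusted p = 0.742).

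The genes downstream of ATF4 went different ways. Sesn2 (chr4:132492032-132510501) encodes sestrin 2, which restrains mTORC1 when leucine is short. Its log2 CPM was 4.14, 4.22, 4.35 and 4.24 in CTRL and 3.99, 4.19, 4.09, 4.02 and 4.11 in Emul. Most Emul libraries were below the CTRL libraries, but Emul 2 lay above CTRL 1. The log2 fold change was -0.15 (SE 0.056, 95% interval -0.28 to -0.031; limma-voom, unadjusted p = 0.0185, adjusted p = 0.223). Without CTRL 3, the highest library, it was -0.12 with an unadjusted p of 0.0555. In TPM it was -0.26 (limma-trend, unadjusted p = 0.00438), or -0.16 relative to the median gene. The TPM of the groups did not overlap (10.1 to 12.2 in CTRL, 8.60 to 9.49 in Emul). On that scale 26.8% of all genes were called lower, and the share of all genes without overlap was not counted.

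Trib3 (chr2:152337422-152344032) encodes a pseudokinase that is induced by ATF4 and CHOP and feeds back on them. Its counts were 15, 14, 8 and 13 in CTRL and 23, 18, 25, 26 and 17 in Emul, or 50 and 109 in total. In log2 CPM these are -1.17, -1.35, -1.59 and -1.51 against -0.66, -1.04, -0.49, -0.68 and -0.94. Every Emul library was above every CTRL library, and the mean difference in log2 CPM was 0.64 (exact permutation test over 126 splits, two-sided p = 0.00794, the smallest this design can give). This p is for 1 gene and is not adjusted. By the same test p was 0.0159 in CPM, 0.0159 in counts and 0.111 in TPM. The share of genes below the filter whose groups do not overlap was not counted. Fitted without the filter, the log2 fold change was 0.69 (limma-voom, unadjusted p = 0.0130, adjusted p = 0.308 over 27391 genes). Counting error is large at this level. The exact Poisson 95% interval of Emul 5, the lowest Emul count, was 9.90 to 27.2, and that of CTRL 1, the highest CTRL count, was 8.40 to 24.7. In TPM the groups overlapped (0.299 to 0.570 in CTRL, 0.402 to 1.03 in Emul).

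Chac1 (chr2:119351229-119354381), which encodes an enzyme that degrades glutathione, had log2 CPM of 2.52, 2.37, 2.45 and 2.54 in CTRL and 2.65, 2.84, 2.42, 2.34 and 2.63 in Emul. Emul 1, 2 and 5 were above all CTRL libraries and Emul 4 below them. The log2 fold change was 0.11 (95% interval -0.13 to 0.34; limma-voom, unadjusted p = 0.345). It was 0.035 without Emul 2, 0.067 without CTRL 2 and 0.17 without Emul 4. Asns (chr6:7675169-7693254), asparagine synthetase, had log2 CPM of 6.01, 6.08, 5.99 and 6.06 in CTRL and 6.01, 5.99, 5.95, 6.02 and 6.13 in Emul. The groups overlapped, with a log2 fold change of -0.019 (95% interval -0.10 to 0.065; limma-voom, unadjusted p = 0.627), and it stayed between -0.045 and -0.0022 with each library left out. The intervals of Asns and Atf4 leave room only for small changes, whereas that of Chac1 is wide.

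**Figure D3:**
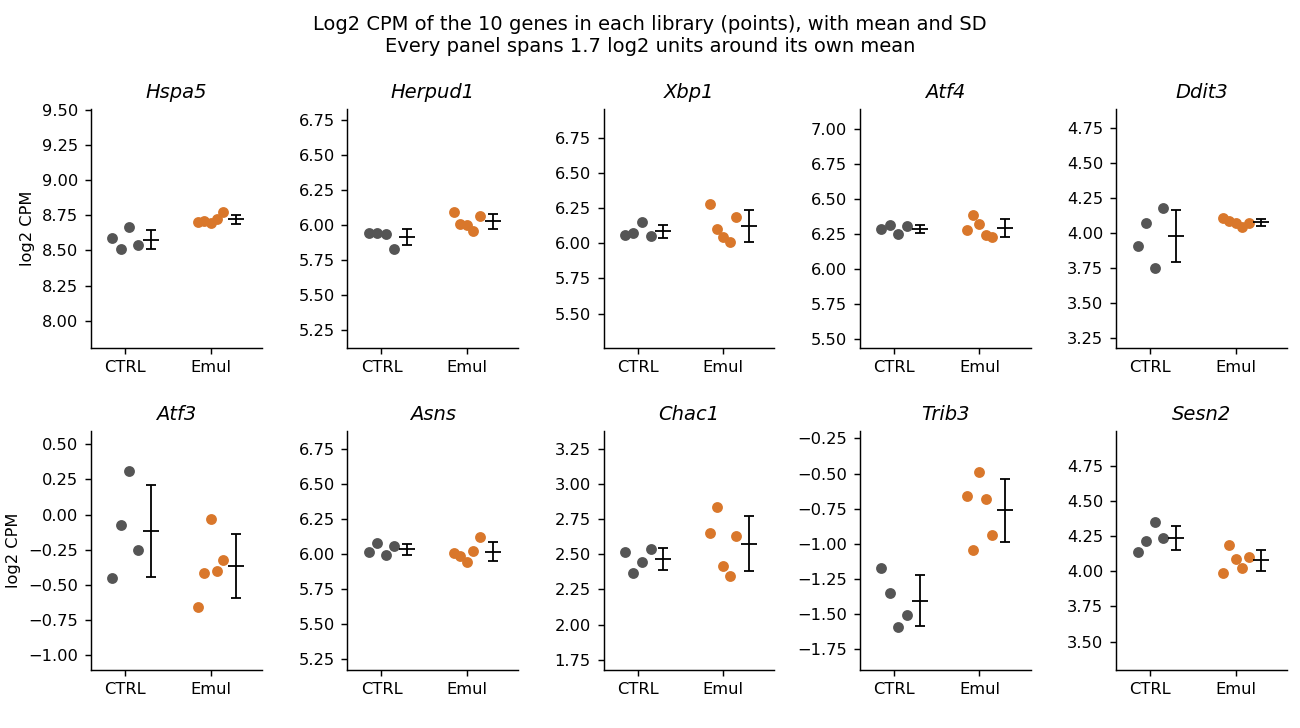
Log2 CPM of the 10 genes (1 panel each, y axes of equal span) in 4 CTRL and 5 Emul libraries; points are libraries and bars are mean ± SD. With TMM scaling, Hspa5, Herpud1 and Trib3 show no overlap between the groups, Sesn2 is lower in most Emul libraries with some overlap, and the other 6 overlap more widely.

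Around these genes, 4 further lists from the same pathways were examined. Of 26 other ER chaperone and degradation genes, 26 were tested. In Emul 6 were higher (23.1%), 2 lower (7.69%) and 18 not called, beside 6.84% higher and 8.99% lower of all genes. The median log2 fold change was 0.054. The chaperone genes Dnajb9 (log2 fold change 0.14, unadjusted p = 0.00127), Calr (0.11, unadjusted p = 0.00844) and Hsp90b1 (0.10, unadjusted p = 0.00956) had the smallest p among those higher (limma-voom; lowest adjusted p in the list 0.112). Manf, a secreted ER stress protein, Pdia3, a disulfide isomerase, and Sec24d, a coat protein of vesicles leaving the ER, were the other 3 that were higher. Edem1 (-0.16, unadjusted p = 0.0120) and Edem2 (-0.13, unadjusted p = 0.0208), whose products direct misfolded glycoproteins to degradation, were lower. Dnajb9 log2 CPM ran from 5.83 to 5.88 in CTRL and from 5.94 to 6.05 in Emul without overlap. The degradation gene Herpud1 and the Edem genes lay on opposite sides. The count of higher genes depended on the scaling. With library size alone 2 were higher and 2 lower, where 3.37% of all genes were higher and 14.7% lower. In TPM 0 were higher and 6 lower, where 0.854% of all genes were higher and 26.8% lower. The list median in TPM was -0.061, against -0.099 for all genes. Without CTRL 2, 3 genes were higher and 2 lower.

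Of 26 other ATF4-dependent genes 24 were tested, and Gdf15 and Fgf21 were too low. In Emul 1 was higher (4.17%), 4 were lower (16.7%) and 19 were not called, beside 6.84% higher and 8.99% lower of all genes. The median log2 fold change was -0.045, and 16 of the 24 values were negative. The 4 lower genes were Gpt2 (-0.14, unadjusted p = 0.00331), an alanine transaminase, Psat1 (-0.14, unadjusted p = 0.0209) and Psph (-0.17, unadjusted p = 0.0324), both enzymes of serine synthesis, and Cebpg (-0.11, unadjusted p = 0.0244), a partner of ATF4 (limma-voom; lowest adjusted p in the list 0.153). Slc7a3, a transporter of cationic amino acids, was higher (0.13, unadjusted p = 0.0316). Sesn2 is on the side of these 4 genes, while Trib3 is not. Scaled by library size alone, where the median of all genes was -0.029, 9 of the 24 were lower and 0 higher. The same counts were obtained in TPM. Of all genes, 14.7% were lower with library size alone and 26.8% in TPM. Without CTRL 1, 2 were lower and 0 higher, and without Emul 3, 2 were lower and 1 higher.

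Of 12 cytosolic aminoacyl-tRNA synthetases, another ATF4-dependent group, Cars was higher (0.084, unadjusted p = 0.0389) and Iars lower (-0.11, unadjusted p = 0.00943), with a median of 0.027 and a lowest adjusted p of 0.187. Of these synthetases 8.33% were called in each direction, near the 6.84% higher and 8.99% lower of all genes. Of 17 sensors and regulators, 3 were higher (17.6%), 1 was lower (5.88%) and 13 were not called, with a median of 0.035. The kinases and sensors Eif2ak3 (0.039, unadjusted p = 0.371), Ern1 (0.035, unadjusted p = 0.502), Atf6 (0.018, unadjusted p = 0.690) and Eif2ak4 (0.0020, unadjusted p = 0.966) were not called, and Eif2ak2, the kinase that senses double-stranded RNA, was higher (0.14, unadjusted p = 0.0304). Eif2s1, which encodes the phosphorylated subunit of eIF2, was also higher (0.12, unadjusted p = 0.0466). With library size alone neither Eif2ak2 nor Eif2s1 was called (limma-voom, unadjusted p = 0.0787 and 0.117). In TPM they were -0.027 and 0.010 (limma-trend, unadjusted p = 0.713 and 0.902). In TPM the medians of both lists were negative (-0.080 and -0.062), as was that of all genes, and that of the tRNA synthetases was -0.0036 with library size alone. Without CTRL 2, CTRL 3 or Emul 2, 1 sensor or regulator was higher and 1 lower. Without CTRL 3, CTRL 4, Emul 1 or Emul 3, the only tRNA synthetase called was 1 that was lower, and without Emul 4, 2 were higher and 1 lower.

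The 2 subunits that direct phosphatase to eIF2 went in opposite directions. Ppp1r15a (GADD34), which is induced in the ISR, had log2 CPM of 3.99, 3.98, 3.97 and 3.90 in CTRL and 4.23, 4.12, 4.21, 4.12 and 4.16 in Emul. Ppp1r15b (CReP), which acts without stress, had 6.20, 6.22, 6.24 and 6.19 in CTRL and 6.05, 6.19, 6.07, 6.10 and 6.03 in Emul. Neither gene overlapped between the groups, and 6.60% of all genes tested did not either. The log2 fold changes were 0.21 for Ppp1r15a (limma-voom, unadjusted p = 0.000907, adjusted p = 0.106) and -0.12 for Ppp1r15b (unadjusted p = 0.00574, adjusted p = 0.173). In TPM they were 0.096 (unadjusted p = 0.154) and -0.22 (unadjusted p = 0.000815).

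**Figure D4:**
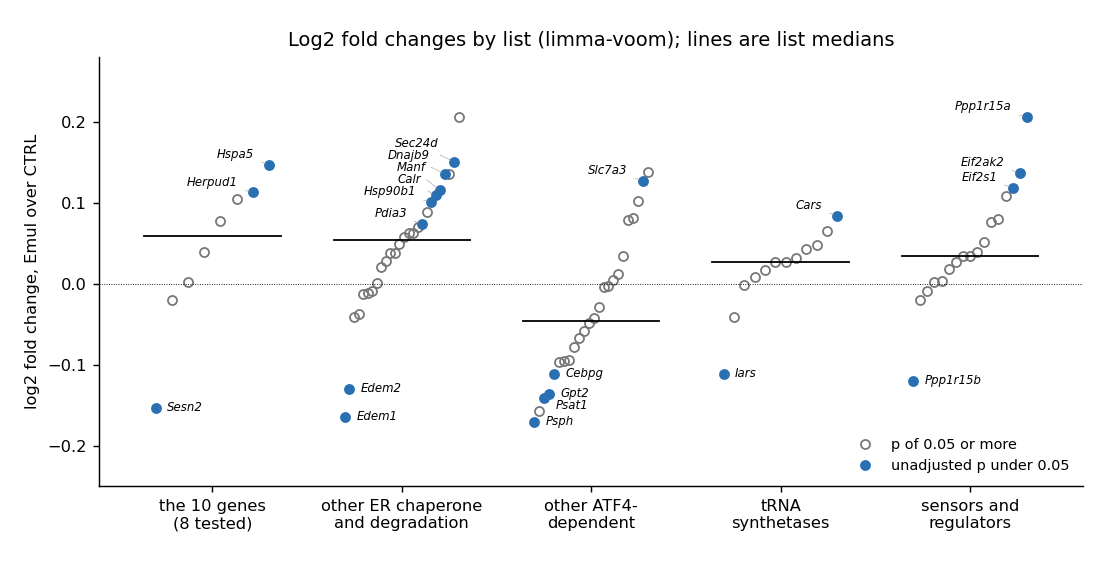
Log2 fold change of Emul over CTRL (y axis, limma-voom) for the tested genes of 5 lists, 1 circle per gene; filled circles have an unadjusted p under 0.05 and are named, and lines are list medians. Medians are 0.059 for the 8 tested genes and 0.054 for other ER chaperone and degradation genes, and -0.045 for other ATF4-dependent genes; in TPM without TMM, where the median of all genes was -0.099, they are -0.053, -0.061 and -0.15.

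With TMM, summed chaperone and degradation genes were higher and ATF4-dependent genes lower in all Emul libraries than in all CTRL libraries. The former did not hold with library size alone or in TPM, where the median of all genes was itself lower in Emul. The other ER chaperone and degradation genes summed to 2818 to 2931 CPM in CTRL and 2944 to 3062 in Emul. The other ATF4-dependent genes summed to 1004.7 to 1044.9 CPM in CTRL and 981.0 to 1003.2 in Emul, nearly a tie at the edge. A sum weighs abundant genes most. Singly, 18 of 26 and 19 of 24 genes were not called, and 0 had an adjusted p under 0.05 (limma-voom). How often sums of other gene lists separate was not counted. Scaled by library size alone, the chaperone and degradation sums overlapped (2843 to 2991 against 2916 to 3052 CPM), while the ATF4-dependent sums did not (1027 to 1053 against 972 to 991 CPM). In TPM the former also overlapped and the latter did not (805 to 827 in CTRL, 715 to 769 in Emul). Relative to the median of all genes, the list medians of chaperone and degradation genes were 0.052 (TMM), 0.052 (library size alone) and 0.038 (TPM). Those of ATF4-dependent genes were -0.047, -0.047 and -0.046. The sums of the tRNA synthetases (1099 to 1137 against 1125 to 1158 CPM) and of the sensors and regulators (648 to 665 against 655 to 673 CPM) overlapped. Mitochondrial transcripts were higher and summed astrocyte markers lower in the same Emul libraries, both without overlap, as given above. Neuron markers were higher and oligodendrocyte markers lower, with sums that overlapped. The part of these shifts in the list sums was not tested.

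Set against the motifs, 11605 genes tested had a window, and 19 of them held an ERSE, of which 3 were higher in Emul (Hspa5, Calr and Hsp90b1, described above) and 0 lower, while 6.28% of the genes without an ERSE were higher. Of 8 with an ERSE-II, 2 were higher and 0 lower, and of 331 with a CARE, 22 were higher (6.65%, beside 6.29% of the genes without one) and 22 lower. Among 21 of the other ER chaperone and degradation genes with a window, 8 held an ERSE (Calr, Canx, Creld2, Derl3, Dnajc3, Hsp90b1, Pdia6 and Syvn1), of which 2, Calr and Hsp90b1, were higher. Of the members with a CARE that were tested, Herpud1 was higher, and Chac1 and Asns were not called. These counts are small and are given as a description.

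No share of a main transcript differed between the groups after adjustment. It could be compared for 8 genes, since Chac1 and Sesn2 have 1 transcript each. The main Hspa5 transcript made up 94.9% ± 0.319 of the gene's estimated counts in CTRL and 95.0% ± 0.229 in Emul, and that of Herpud1 74.7% ± 3.57 and 75.3% ± 5.97 (SD, n = 4 and 5). The main coding transcript of Xbp1 made up 92.1% ± 0.561 of its estimated counts in CTRL and 93.9% ± 1.46 in Emul, which had an exact permutation p of 0.0476 and an adjusted p of 0.381 over the 8 genes; as a share of TPM, 0 of the 8 had a p under 0.05. For Atf3, with its few counts, the main transcript took from 0% (Emul 4) to 100% of the counts. Retained-intron transcripts took 11.8% to 20.2% of the Ddit3 counts, and on average 14.7% in CTRL and 14.9% in Emul.

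Relations between the genes were examined over the 9 libraries, for 28 pairs of genes and for each gene against measures of the library, 52 relations in all. None of the 52 had an adjusted p under 0.05. Hspa5 and Herpud1 had the smallest p among the pairs (Pearson's r = 0.730, exact permutation p = 0.0231; Spearman's rho = 0.750, exact p = 0.0255; adjusted p = 0.422). Without CTRL 2 and CTRL 4, the libraries farthest from the Hspa5 median, r was 0.591, and with each group centred on its mean it was 0.245. Within the groups the relation was thus weaker. Of 12 immediate early genes tested 7 were lower in Emul, beside 8.99% of all genes (summed CPM 278 to 365 in CTRL and 172 to 269 in Emul). Their mean had r = 0.691 with Sesn2 (exact permutation p = 0.0391, rho = 0.817 with exact p = 0.0108) and r = -0.652 with Hspa5 (exact p = 0.0571, rho = -0.833 with exact p = 0.00827). Both had an adjusted p for r of 0.422, and centred on the groups r was 0.354 and -0.132. Without Emul 4 and Emul 5 these r were 0.794 and -0.332. Ddit3 went with the total count of the library (r = 0.790, exact permutation p = 0.0267; rho = 0.50 with exact p = 0.178; adjusted p = 0.422), and r was 0.558 without CTRL 3 and Emul 4.

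For each tested member the gene with the most similar pattern was found by Pearson's r after centring each group, over 9 libraries, as a description. It was Dcbld1 for Hspa5 (r = 0.974), Gm7334 for Herpud1 (0.949), Leng9 for Xbp1 (0.950), Dcst1 for Atf4 (0.950), Bcar3 for Ddit3 (0.955), Nup62 for Sesn2 (0.957), Camk2n2 for Chac1 (0.987) and Adsl for Asns (0.969). No other member of the 10 was among them. The second gene of each member had an r of 0.936 to 0.972, out of 15340 genes compared.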

How the data were processed

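RNA from the MBH of 9 male mice at P21 (4 CTRL, 5 Emul) was sequenced by the authors with strand-specific mRNA libraries. The authors quantified transcripts with kallisto on mm10 and deposited, for 119414 transcripts per library, TPM values and estimated counts, the latter not normalized. A table deposited by the authors gives log2 CPM by gene symbol in 14592 named rows; it holds 8 of the 10 genes (not Atf3 and Trib3). The submitters' processing notes name FastQC 0.11.9, kallisto 0.46.1 and edgeR 3.40.1. The transcript annotation release they used is not given in the sources used here.

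Estimated counts were summed per gene with the GENCODE M21 annotation of mm10 (97.8% of transcripts matched), which dropped 1.20% to 1.27% of each library's counts. A second identifier that carries the symbol Ddit3 was not summed with the gene. The filter of the study's methods was used, a CPM over 1 in 4 or more libraries. Libraries were scaled by TMM, and groups were compared by limma-voom (limma 3.58.1, edgeR 4.0.16, R 4.3.3) without covariates; log2 CPM values used a prior count of 2. Adjustment was by Benjamini-Hochberg across every gene in the fit. Values per library and correlations were compared by two-sided exact permutation tests (scipy 1.17.1). In a test on simulated data the fit recovered the changed genes. How well the fit recovers log2 fold changes as small as those of the members was not tested.

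Counting error is large for Atf3 and Trib3. It also enters the spread of Chac1, which had 154 to 295 counts, and of Ddit3, which had 383 to 780. How much of each gene's spread is counting error and how much is between litters was not tested. No pair of libraries of a group agreed within counting noise, so all were kept as separate replicates. No batch is given in the labels. Members and lists were chosen with earlier results of these data known. Named were all members, the 3 genes of each pathway list with the smallest unadjusted p under 0.05 in each direction, and the gene most alike to each member; the other called genes of the lists and 4 sensors were named after their values were seen. The fit was repeated with DESeq2 1.42.0, edgeR's quasi-likelihood test, limma-trend, sample quality weights, other scalings and filters, counts scaled from TPM by length (lengthScaledTPM), older transcript identifiers only (numbers under 195750), the authors' table, the replicate number as a block and each library left out. A test on log2(TPM + 0.1) without TMM was added after seeing the data.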

Additional observations from a re-analysis of the deposited data

Results flagged for a closer look

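In 2 of the 20 groups of values examined, 1 library stood apart from the rest of its group, where chance alone gives about 1. CTRL 3 had a log2 CPM of 6.16 for Xbp1, beside 6.05 to 6.07 in the other CTRL libraries. CTRL 4 had a log2 CPM of 5.83 for Herpud1, beside 5.94 to 5.95 in the other CTRL libraries, and the value of Herpud1 without it is given with its result.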

How the results depend on the processing

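Among the 8 genes tested, the number with an unadjusted p under 0.05 was 3, and 2 or 3 of them in 23 alternatives; without a filter it was 4 of 10, Trib3 included. An adjusted p under 0.05 was reached by 1 with DESeq2 and by 0 in the others. Of the sensors and regulators 4 were called, beside 2 with library size alone, 2 in the authors' table, 2 with the replicate block, and 2 to 4 with each library left out. Of the other ATF4-dependent genes 5 were called, beside 8 with sample quality weights, 9 with library size alone, 9 in TPM without TMM, 2 in the authors' table, and 2 to 5 with each library left out. Of the tRNA synthetases 2 were called, beside 1 each with DESeq2, library size alone, no filter, lengthScaledTPM and the authors' table, and 1 to 3 with each library left out. Of the other ER chaperone and degradation genes 8 were called, beside 4 with library size alone, 5 with lengthScaledTPM, 5 in the authors' table, 3 with the replicate block, and 5 to 10 with each library left out. With DESeq2, an adjusted p under 0.05 was reached by 1 sensor or regulator (Ppp1r15a), 1 other ATF4-dependent gene (Gpt2) and 1 other chaperone gene (Dnajb9), and in TPM by 1, 4 and 1 genes of these lists, all 6 lower in Emul, where 2.22% (DESeq2) and 5.03% (TPM) of all genes were called. The cause was not tested.

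The direction of Atf4 changed with quality weights (-0.00036), library size alone (-0.028), no filter (-0.00060), lengthScaledTPM (-0.0019), older transcripts only (-0.0027), the authors' table (-0.0020) and TPM (-0.100), and ran from -0.021 to 0.018 with each library left out. Asns became 0.0085 with lengthScaledTPM and 0.012 in the authors' table, Ddit3 -0.017 and Xbp1 -0.096 in TPM. Herpud1 was 0.083 (unadjusted p = 0.0559) with library size alone. Of the transcript shares, 1 had an unadjusted p under 0.05, beside 0 as a share of TPM and 0 to 1 with each library left out. In the authors' table, which is not per length, 4 of 8 genes kept their rank. The labels do not say whether replicate numbers pair the mice. Deviations of same-numbered libraries from their group means correlated at -0.16 to 0.021, which cannot exclude a pairing. With the number as a block the log2 fold changes were 0.13 for Hspa5, 0.10 for Herpud1 and -0.16 for Sesn2. Depth limits Atf3 and Trib3 most.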
